A study of Homo sapiens with 8 samples.

Results

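The SMAD transcription factors SMAD1 to SMAD7 were followed in 2 human prostate cancer lines with and without activated Notch1. The members were chosen by symbol: a probe set was taken when the platform annotation gave it 1 gene symbol and that symbol was a member's. This gave 7 genes and 17 probe sets, of 8226 genes and 10943 probe sets with 1 symbol on the Affymetrix U95Av2 array, and no member probe set carried several symbols. SMAD3 and SMAD4 had several probe sets each, SMAD7 had 1, and every one is described here. LNCaP cells come from a lymph node metastasis and respond to androgens, whereas PC3 cells, taken from a metastasis in bone, do not need them for growth. Each line was made to express an activated form of Notch1, which signals without ligand, or green fluorescent protein (GFP) as control. The 4 groups had 2 arrays each and are called PC3 GFP and LNCaP GFP (controls), and PC3 Notch1 and LNCaP Notch1. The sample titles say only that Notch1 was overexpressed, and the activated form is taken from the study's text. No other allele or agent is labelled, and the sources used here do not give the vector, dose and time behind the arrays.

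SMAD proteins carry signals of the TGF-beta family from the cell surface to the nucleus. SMAD2 and SMAD3 are phosphorylated by the TGF-beta and activin receptors, SMAD1 and SMAD5 by the BMP receptors, and SMAD4 is the common partner with which both pairs enter chromatin. SMAD6 and SMAD7 are inhibitory, and their genes are themselves induced by BMP and TGF-beta signals. In prostate epithelium TGF-beta restrains growth, in part through cell-cycle inhibitors such as p21, the product of CDKN1A. When Notch is activated, its intracellular part binds the DNA-binding protein RBPJ (CSL) and turns on genes such as HES1.

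HES1 served as a check of Notch activity, since NOTCH1 itself was not analysed here. Its log2 expression was 7.92 and 8.08 on the PC3 GFP arrays and 10.51 and 10.61 on the PC3 Notch1 arrays, and 8.41 and 8.47 rose to 11.22 and 11.23 in LNCaP. The increases, 2.56 in PC3 and 2.78 in LNCaP, had adjusted p-values of 4.22e-07 and 3.12e-07. Adjusted p-values come from limma, a linear model with moderated errors, by the Benjamini-Hochberg method over 12558 tested probe sets, and "called" means an adjusted p under 0.05. The pair of arrays in each group had r = 0.995 to 0.998 over all tested probe sets, a correlation across genes rather than replicates. Array medians were 5.95 to 6.01 in PC3 and 6.28 to 6.36 in LNCaP, and the share of probe sets under log2 5, taken here as a low signal, was 36.6% to 37.6% in PC3 and 31.9% to 33.0% in LNCaP. All 4 measured LNCaP markers (KLK3, KLK2, TMPRSS2 and HOXB13, of 7 listed) were higher on every LNCaP array than on any PC3 array, and all 6 PC3 markers the reverse. The sums over these lists also moved with Notch1, although single members can carry a sum. Among the PC3 markers in LNCaP, ANXA1 had log2 means of 4.73 (GFP) and 7.97 (Notch1), and CD44 of 3.44 and 3.43. The summed linear level of the LNCaP markers was 3044 to 3291 on LNCaP GFP and 1822 to 2157 on LNCaP Notch1 arrays, against 1138 to 1198 and 936 to 958 in PC3. That of the PC3 markers was 10868 to 12407 on PC3 GFP and 15719 to 16435 on PC3 Notch1 arrays, against 931 to 974 and 1227 to 1258 in LNCaP. The 5 measured leukocyte markers of 6 listed summed to 448 to 466 on PC3 GFP, 368 to 400 on PC3 Notch1, 486 to 495 on LNCaP GFP and 512 to 579 on LNCaP Notch1 arrays. The 5 stromal markers of 6, with 2 under log2 5 on all 8 arrays, summed to 415 to 425, 399 to 401, 431 to 446 and 461 to 529 in the same order. The part of these shifts in the SMAD values was not tested. In whole cultures, a change in the makeup of the cells and a change in RNA per cell cannot be told apart. The methods give 2 chips for each sample, so the spread behind each p-value is that of these arrays and may be technical, and precision is limited by how few they are.

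**Figure D1:**
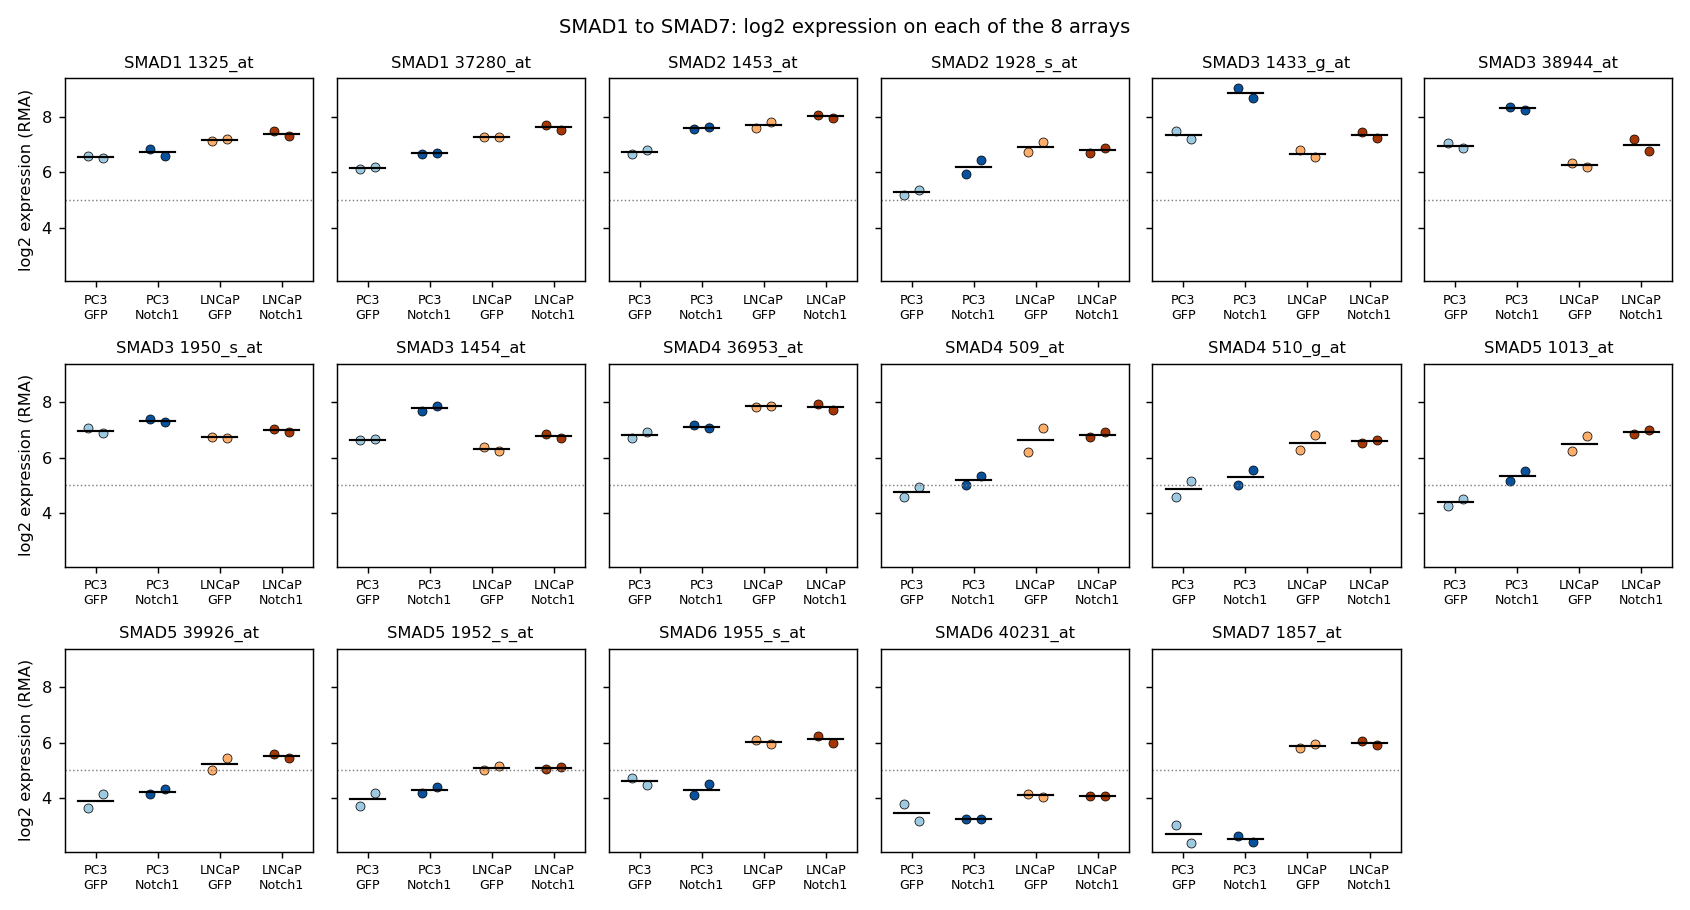
Log2 expression (RMA, y axis) of each of the 17 SMAD probe sets on the 8 arrays, 1 panel per probe set. Points are arrays, horizontal lines are group means (n = 2) and the dotted line marks log2 5. SMAD3 1433_g_at sits at 7.21 to 7.49 in PC3 GFP and 8.69 to 9.07 in PC3 Notch1, and SMAD7 lies under log2 5 on every PC3 array and between 5.82 and 6.06 on every LNCaP array.

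SMAD3 was the member that changed most, and the member called higher with activated Notch1 in both lines. In PC3 it rose by 1.53, 1.35 and 1.14 on the log2 scale on 3 of its 4 probe sets (2.88-fold, 2.56-fold and 2.21-fold), and in LNCaP by 0.68, 0.71 and 0.47 on the same 3. Probe set 1433_g_at read 7.49 and 7.21 in PC3 GFP, 9.07 and 8.69 in PC3 Notch1, 6.81 and 6.54 in LNCaP GFP and 7.47 and 7.24 in LNCaP Notch1. Probe set 38944_at read 7.05 and 6.88, then 8.38 and 8.26 in PC3, and 6.33 and 6.20, then 7.19 and 6.76 in LNCaP. Probe set 1454_at read 6.63 and 6.67, then 7.70 and 7.88 in PC3, and 6.40 and 6.22, then 6.84 and 6.71 in LNCaP. On all 3, both Notch1 arrays lay above both GFP arrays of the line, and the PC3 Notch1 arrays were the highest of all 8. The 3 probe sets were designed from 1 source sequence record and are no independent measurements of the transcript. Adjusted p-values were 0.000341 (SE 0.17), 0.000428 (SE 0.15) and 0.000320 (SE 0.12) in PC3, and 0.0176, 0.00918 and 0.0261 in LNCaP.

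The fourth SMAD3 probe set, 1950_s_at, comes from another sequence record and moved less. It read 7.06 and 6.87 in PC3 GFP, 7.39 and 7.27 in PC3 Notch1, 6.75 and 6.71 in LNCaP GFP and 7.05 and 6.92 in LNCaP Notch1, so the groups did not overlap in either line. The differences of 0.37 in PC3 (95% interval 0.10 to 0.63, adjusted p = 0.103) and 0.25 in LNCaP (-0.02 to 0.52, adjusted p = 0.204) were not called, the first becoming called with the replicate number as a block (adjusted p = 0.0441). The probe sets of SMAD3 therefore gave a common sign with sizes from 0.37 to 1.53 in PC3. The PC3 calls of the other 3 were kept under all 15 alternatives. In LNCaP, with GFP replicate 2 left out, none of these 3 was called (adjusted p = 0.120, 0.0591 and 0.196 in the order above). Nor was any with LNCaP Notch1 replicate 1 left out (0.139, 0.0787 and 0.151), and 1454_at was also lost without LNCaP Notch1 replicate 2 (0.0640). With values under log2 5 raised to log2 5, a floor, the LNCaP calls were lost too (0.122, 0.0773 and 0.0570). Where all values lie above log2 5, as here, the floor leaves the change itself as it was. The prior degrees of freedom behind the moderated errors fell from 6.37 to 0.386 with the floor. A call lost with the floor therefore need not mean a low signal.

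Promoter windows show what lies before the SMAD3 starts. All 7 genes were matched in RefSeq (GRCh38.p14), with 18 windows of 250 bases before to 50 after an annotated start: 5 for SMAD1, 2 for SMAD2, 5 for SMAD3, 1 each for SMAD4, SMAD5 and SMAD6, and 3 for SMAD7. They were searched on both strands for TGGGAA, the core of the site bound by RBPJ, for GTGGGAA, a longer form that contains it, and for GTCTAGAC, the palindromic box bound by SMAD proteins. The upstream part of a pair of SMAD3 windows is printed because SMAD3 led the changes: that of its first start, at chr15:67065352-67065601, has 80.8% G and C and none of these letters, and that of a later start, at chr15:67125492-67125741, holds GTGGGAA at -218, in capitals (both on the plus strand).
SMAD3 first start: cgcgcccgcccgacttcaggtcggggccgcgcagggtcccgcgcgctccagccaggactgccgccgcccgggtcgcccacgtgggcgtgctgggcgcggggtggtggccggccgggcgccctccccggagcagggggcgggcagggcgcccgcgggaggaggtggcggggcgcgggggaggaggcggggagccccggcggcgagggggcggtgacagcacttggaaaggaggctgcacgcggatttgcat
SMAD3 later start: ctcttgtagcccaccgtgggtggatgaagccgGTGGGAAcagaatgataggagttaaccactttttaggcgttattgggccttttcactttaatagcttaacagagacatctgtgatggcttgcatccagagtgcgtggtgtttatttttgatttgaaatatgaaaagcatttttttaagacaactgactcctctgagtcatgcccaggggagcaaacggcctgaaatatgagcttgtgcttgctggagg

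Shorter stretches around the matches of other members are printed for comparison, with the motif in capitals. SMAD1, whose change is described below, holds GTGGGAA just inside one transcript, at +4 with the start counted as 1 (chr4:145482326-145482355, plus strand). SMAD5 holds the core on the minus strand in a pair of adjoining copies, the first base at -207 (chr5:136132611-136132670, plus strand). SMAD6 holds the SMAD box at -12 (chr15:66702176-66702235, plus strand) and SMAD7 the core at -185 (chr18:48942960-48943019, minus strand), with another copy at -56 outside the printed stretch.
SMAD1: ggtcttctgctGTGGGAAgcccagttcccg
SMAD5: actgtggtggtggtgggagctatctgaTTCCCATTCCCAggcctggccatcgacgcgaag
SMAD6: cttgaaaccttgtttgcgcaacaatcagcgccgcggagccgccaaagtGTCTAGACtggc
SMAD7: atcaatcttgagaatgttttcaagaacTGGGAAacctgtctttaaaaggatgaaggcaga

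The core TGGGAA was found in 4 of the 18 SMAD windows, against 24.0% of all 35116 windows of the table. GTGGGAA was found in 2 of 18, against 6.25%, and GTCTAGAC in 1, against 0.202%. The core was thus no more frequent in the SMAD windows than in all windows. Among members called higher in PC3, SMAD1 and SMAD3 had TGGGAA in 1 of 5 windows each. SMAD5 had it in its only window, while SMAD2 had no match in its 2 windows. SMAD7, which was not called, had it in 1 of 3 windows. A match is a run of letters and not a bound site. SMAD6 and SMAD3 lie on the same chromosome with no protein-coding gene starting between them in that annotation.

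SMAD2, the other TGF-beta and activin mediator, rose in PC3 by 0.86 on 1453_at (1.82-fold, SE 0.12, adjusted p = 0.00245) and by 0.93 on 1928_s_at (1.90-fold, SE 0.18, adjusted p = 0.0143). The 1453_at values were 6.65 and 6.83 in PC3 GFP, 7.56 and 7.64 in PC3 Notch1, 7.62 and 7.81 in LNCaP GFP and 8.09 and 7.98 in LNCaP Notch1. Those of 1928_s_at were 5.20 and 5.36, then 5.96 and 6.45 in PC3, and 6.73 and 7.10, then 6.71 and 6.90 in LNCaP. In PC3 the groups did not overlap on either probe set, and in LNCaP they overlapped on 1928_s_at. The LNCaP differences, 0.33 (95% interval 0.05 to 0.60, adjusted p = 0.108) and -0.11 (-0.51 to 0.29, adjusted p = 0.770), were not called. The PC3 call of 1453_at was kept under all 15 alternatives, and that of 1928_s_at disappeared with PC3 GFP replicate 1 left out (adjusted p = 0.0755), with PC3 Notch1 replicate 2 left out (0.133) and with the floor (0.146).

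Of the BMP mediators, SMAD1 was called higher in PC3 on 37280_at, by 0.53 (1.44-fold, SE 0.12, adjusted p = 0.0289). That probe set read 6.12 and 6.21 in PC3 GFP, 6.68 and 6.70 in PC3 Notch1, 7.29 and 7.30 in LNCaP GFP and 7.73 and 7.52 in LNCaP Notch1. The other, 1325_at, read 6.58 and 6.53, then 6.86 and 6.60 in PC3, and 7.14 and 7.2, then 7.50 and 7.32 in LNCaP. Both Notch1 arrays lay above both GFP arrays in each line on both probe sets. The uncalled differences were 0.17 for 1325_at in PC3 (adjusted p = 0.413), and 0.24 and 0.33 for 1325_at and 37280_at in LNCaP (0.254 and 0.0825). The PC3 call of 37280_at was lost when only the PC3 arrays were fitted (adjusted p = 0.0666), with the floor (0.0563), and without PC3 GFP replicate 1 (0.139), PC3 Notch1 replicate 1 (0.154) or PC3 Notch1 replicate 2 (0.156).

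SMAD5 was called higher in PC3 on 1 of 3 probe sets. Probe set 1013_at read 4.24 and 4.51 in PC3 GFP, 5.17 and 5.49 in PC3 Notch1, 6.23 and 6.76 in LNCaP GFP and 6.84 and 7.0 in LNCaP Notch1. Both PC3 GFP arrays lay under log2 5, and no groups of a line overlapped. It rose by 0.95 in PC3 (SE 0.19, adjusted p = 0.0145), but by 0.33 (adjusted p = 0.585) with values under log2 5 raised to it. In LNCaP its difference of 0.42 (adjusted p = 0.163) was called with the replicate number as a block (0.0256) and without LNCaP GFP replicate 2, at 0.69 (0.0393). The PC3 call needed both PC3 GFP replicate 1 (0.0869 without it) and PC3 Notch1 replicate 2 (0.139 without it). Probe set 39926_at, from the same sequence record, read 3.63 and 4.14, then 4.15 and 4.31 in PC3, and 5.01 and 5.43, then 5.59 and 5.43 in LNCaP. Probe set 1952_s_at read 3.72 and 4.19, then 4.19 and 4.39 in PC3, and 5.01 and 5.16, then 5.06 and 5.11 in LNCaP. On these probe sets every PC3 value was under log2 5. The differences were 0.35 and 0.33 in PC3 (adjusted p = 0.268 and 0.220) and 0.29 and -0.0043 in LNCaP (0.355 and 0.991), and the PC3 difference of 1952_s_at became 0.57 and called (0.0329) without PC3 GFP replicate 2.

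SMAD4, the common partner, was not called on any of its 3 probe sets, which share 1 sequence record. Probe set 36953_at read 6.72 and 6.92 in PC3 GFP, 7.16 and 7.08 in PC3 Notch1, 7.83 and 7.87 in LNCaP GFP and 7.93 and 7.73 in LNCaP Notch1. Probe set 509_at read 4.55 and 4.92, then 5.00 and 5.35 in PC3, and 6.20 and 7.07, then 6.73 and 6.92 in LNCaP. Probe set 510_g_at read 4.56 and 5.15, then 5.01 and 5.55 in PC3, and 6.26 and 6.82, then 6.54 and 6.63 in LNCaP. In LNCaP the Notch1 and GFP arrays overlapped on all 3. The PC3 differences were 0.30 (95% interval 0.02 to 0.58), 0.44 (-0.12 to 0.99) and 0.42 (-0.11 to 0.96), with adjusted p-values of 0.177, 0.294 and 0.293, and the LNCaP differences -0.02 (-0.30 to 0.26), 0.19 (-0.36 to 0.74) and 0.05 (-0.49 to 0.58). These intervals still allow a change near 2-fold on 509_at in PC3.

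The inhibitory SMADs were not called with Notch1 in either line. SMAD7, on 1857_at, read 3.03 and 2.38 in PC3 GFP, 2.63 and 2.42 in PC3 Notch1, 5.82 and 5.95 in LNCaP GFP and 6.06 and 5.92 in LNCaP Notch1. SMAD6 read 4.74 and 4.47, then 4.09 and 4.51 in PC3, and 6.11 and 5.95, then 6.26 and 6.0 in LNCaP on 1955_s_at. On 40231_at it read 3.77 and 3.17, then 3.25 and 3.22 in PC3, and 4.14 and 4.04, then 4.06 and 4.09 in LNCaP, under log2 5 on all 8 arrays. GFP and Notch1 arrays overlapped in each line on all 3 probe sets. The differences in PC3 were -0.18 (95% interval -0.60 to 0.24) for SMAD7, and -0.31 (-0.68 to 0.06) and -0.24 (-0.62 to 0.15) for SMAD6, the last being called without PC3 GFP replicate 2 at -0.54 (adjusted p = 0.0289). In LNCaP they were 0.11 (-0.31 to 0.53), 0.10 (-0.27 to 0.47) and -0.02 (-0.40 to 0.36). The PC3 values all lay under log2 5, where a change in level is hard to detect.

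By count, the PC3 calls with activated Notch1 all fell on receptor-regulated SMADs. Only those of SMAD2 1453_at and of 3 SMAD3 probe sets were kept under all 15 alternatives. SMAD4, which was not called, also had positive PC3 differences (0.30, 0.44 and 0.42). In PC3, 7 of the 17 probe sets, of SMAD1, SMAD2, SMAD3 and SMAD5, were called higher, where 4.19% of all tested probe sets were. None was called lower (2.01% of all; 0 at an unadjusted p under 0.05 in limma, against 9 higher). On 12 probe sets both Notch1 arrays lay above both GFP arrays, and on 0 below. The share of all tested probe sets separated in this way was not computed, so such counts cannot be judged against it. The median change of the 17 was 0.42, against -0.08 over all tested probe sets. In LNCaP, 3 of 17 were called higher, all of SMAD3, where 8.01% of all were, and 0 lower (9.32% of all; 0 at an unadjusted p under 0.05, against 6 higher). There 8 probe sets had Notch1 arrays above GFP arrays and 0 below, again without a share over all tested probe sets. The median was 0.24 against 0.04. The 3 probe sets called in LNCaP were also called in PC3. They come from 1 source sequence record, so they are no independent calls in either count. Without PC3 GFP replicate 1 or PC3 Notch1 replicate 2 the PC3 count was 4, and in LNCaP the count was 0 without LNCaP Notch1 replicate 1 and 1, SMAD5 1013_at, without LNCaP GFP replicate 2.

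**Figure D2:**
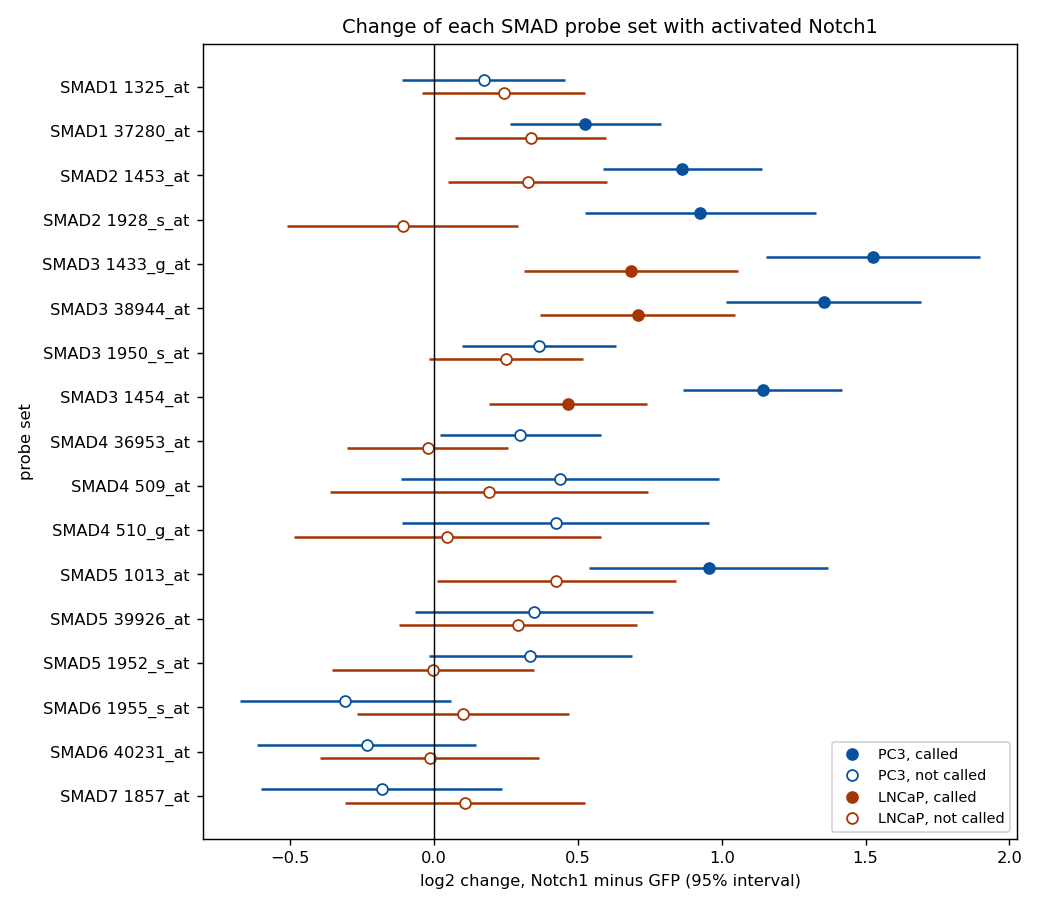
Change with activated Notch1 (x axis, log2 Notch1 minus GFP) of each SMAD probe set (y axis) in PC3 (blue) and LNCaP (brown). Points are fitted changes, filled when called at an adjusted p under 0.05, and bars are 95% intervals from limma. SMAD3 1433_g_at, 38944_at and 1454_at are filled in both lines, with PC3 changes of 1.14 to 1.53 to the right of LNCaP changes of 0.47 to 0.71.

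The size of the response was then compared between lines. The LNCaP change minus the PC3 change was called for 3 probe sets, all lower in LNCaP: SMAD2 1928_s_at at -1.04 (SE 0.26, adjusted p = 0.0238), SMAD3 1433_g_at at -0.84 (SE 0.24, adjusted p = 0.0404) and SMAD3 1454_at at -0.68 (SE 0.18, adjusted p = 0.0291). Of all tested probe sets, 7.67% were called lower and 6.49% higher, and no SMAD probe set was called higher (0 at an unadjusted p under 0.05 in limma, against 5 lower). The change was the larger in PC3 on 13 of 17 probe sets, and the median difference was -0.32, against 0.12 over all tested probe sets. SMAD3 38944_at differed by -0.65 (adjusted p = 0.0727), SMAD2 1453_at by -0.54 (0.0681) and SMAD5 1013_at by -0.53 (0.195). With the replicate number as a block these were called too (adjusted p = 0.0214, 0.0381 and 0.0442), and 6 were called in all. The block also raised the calls over all tested probe sets, from 963 to 1434 lower and from 815 to 1445 higher. The 3 calls did not hold against the loss of single arrays. That of 1928_s_at held only without PC3 GFP replicate 2, PC3 Notch1 replicate 1 or LNCaP GFP replicate 1 (adjusted p = 0.0544 to 0.0911 without any other), and that of 1454_at only without PC3 GFP replicate 2 or LNCaP GFP replicate 2 (0.0503 to 0.116). That of 1433_g_at held only without PC3 GFP replicate 1, PC3 Notch1 replicate 2 or LNCaP GFP replicate 2 (0.0657 to 0.149), and was also lost after quantile normalization (0.0656).

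The control cells of the lines differed in most members. SMAD7 read 3.03 and 2.38 in PC3 GFP, under log2 5, against 5.82 and 5.95 in LNCaP GFP. Its difference as deposited was 3.18 (SE 0.19, adjusted p = 1.17e-07), the largest of the 17, but against the floor at log2 5 it was 0.89, at least 1.85-fold higher (adjusted p = 0.000813), and no longer the largest. Of 17 probe sets, 13 were called higher in LNCaP GFP than in PC3 GFP, of every member except SMAD3, where 40.3% of all tested probe sets were called higher and 18.5% lower. No PC3 GFP array reached an LNCaP GFP array on these 13, a separation that was not counted over all tested probe sets. SMAD5 was higher by 2.12 on 1013_at (1.34 and 1.13 on 39926_at and 1952_s_at), SMAD4 by 1.03, 1.89 and 1.68 on 36953_at, 509_at and 510_g_at, and SMAD2 by 0.97 on 1453_at and 1.64 on 1928_s_at. With the floor, the differences of SMAD2 1928_s_at (1.64), SMAD4 509_at (1.63), SMAD5 1013_at (1.5) and SMAD4 510_g_at (1.46) were the largest. SMAD6 was higher by 1.43 on 1955_s_at (1.03 with the floor) and by 0.62 on 40231_at. The latter lay under log2 5 on all 8 arrays, so its difference was 0 with the floor. SMAD1 was higher by 0.61 on 1325_at and 1.13 on 37280_at.

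SMAD3 went the other way. It was lower in LNCaP GFP by 0.68 on the log2 scale on 1433_g_at (difference -0.68, adjusted p = 0.00519), with differences of -0.70 on 38944_at (0.00250) and -0.34 on 1454_at (0.0367). The last was lost without PC3 GFP replicate 1 (0.0670), PC3 GFP replicate 2 (0.106) or LNCaP GFP replicate 2 (0.221), and with the floor (0.0551). The call of 1433_g_at was also lost with the floor (0.0597), and that of 38944_at was kept (0.0337). The difference of -0.23 on 1950_s_at was not called (adjusted p = 0.123), although LNCaP GFP arrays lay below PC3 GFP arrays on all 4 probe sets. The median of the 17 probe sets was 1.13, against 0.22 over all tested probe sets, and no source states whether both lines were normalized together. After each array was centred on its median, or quantile normalized, the median of all probe sets was -0.06 or -0.04. Then SMAD6 40231_at was no longer called (0.34 and 0.24), as without PC3 GFP replicate 2 (0.32, adjusted p = 0.0712), and SMAD3 1950_s_at was called at -0.51 and -0.47. With the floor at log2 5, SMAD5 39926_at and 1952_s_at differed by 0.22 and 0.09 and were not called. The 3′ minus 5′ log2 signal of the GAPDH controls, a measure of RNA integrity, was 0.02 in PC3 GFP, -0.06 in PC3 Notch1, 0.56 in LNCaP GFP and 0.38 in LNCaP Notch1. That of ACTB was 0.38, 0.33, 0.62 and 0.45, and the part of these values in the differences was not tested.

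**Figure D3:**
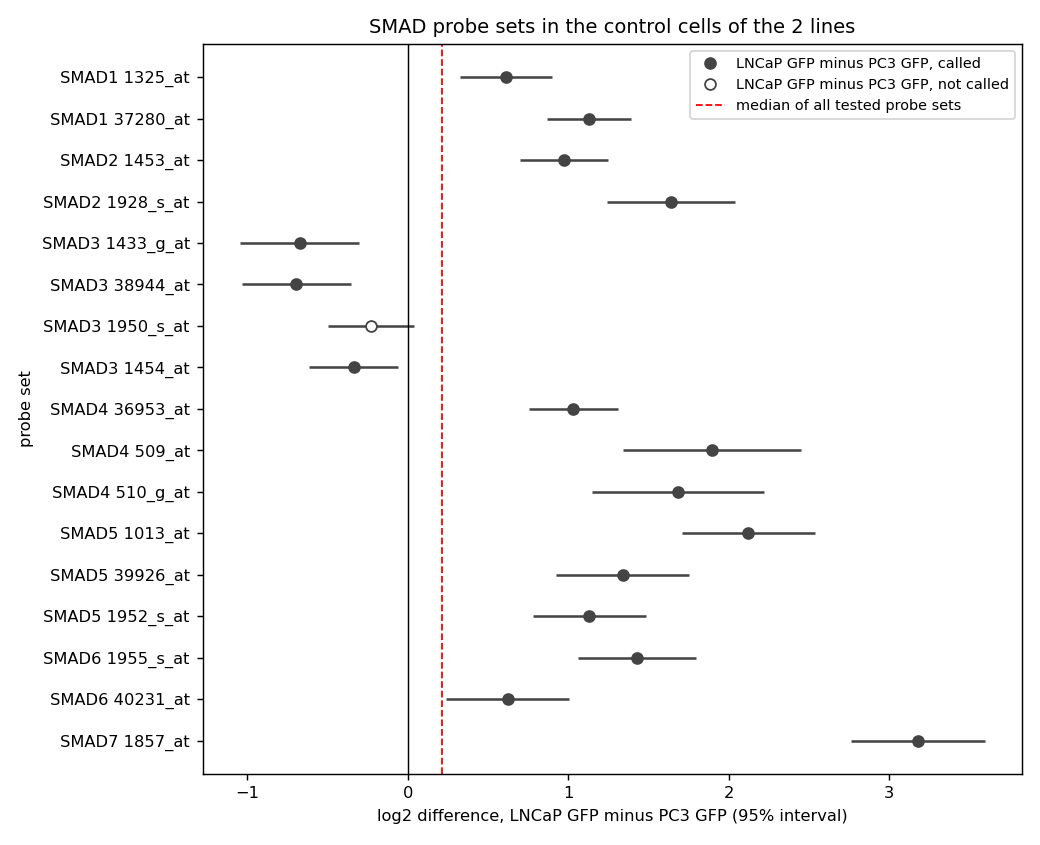
Difference between the control cells (x axis, log2 LNCaP GFP minus PC3 GFP) of each SMAD probe set (y axis), with 95% intervals from limma and filled points for calls. The dashed red line is the median of all tested probe sets, 0.22. All SMAD3 probe sets lie left of 0 and SMAD7 lies farthest right, at 3.18.

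The rest of the pathway was described through 5 lists of 95 genes, 84 of them measured, with each gene read on whichever of its probe sets had the highest mean. With Notch1, 9 were called higher and 2 lower in PC3, and 11 higher and 5 lower in LNCaP, against 4.19%, 2.01%, 8.01% and 9.32% of all probe sets. Where the medians over all tested probe sets were -0.08 and 0.04, the list medians ran from -0.17 to 0.08 in PC3 and from 0.07 to 0.19 in LNCaP. In each line 4 genes had another probe set called where the representing one was not, among them TGFB1 and TGFB2 in PC3 and TGFB3 in both, named here after their values were seen.

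By representing probe set, 2 of 19 ligands were called higher in each line and 0 lower. At an unadjusted p under 0.05 in limma, 2 were lower in PC3 and 0 in LNCaP. Another probe set of TGFB3 was called higher in PC3 (0.95, adjusted p = 0.00341) and LNCaP (0.52, 0.0297). In PC3, another of TGFB1 was called higher (0.66, 0.0384) and of TGFB2 lower (-0.64, 0.0335), the latter with group means under log2 5. Their representing probe sets had uncalled PC3 changes of -0.05 (TGFB1), -0.18 (TGFB2) and 0.03 (TGFB3), and 0.22 in LNCaP (TGFB3). BMP6, a ligand read by SMAD1 and SMAD5, was 6.07 and 5.71 in PC3 GFP, 8.11 and 7.83 in PC3 Notch1, 6.59 and 6.54 in LNCaP GFP and 8.91 and 8.66 in LNCaP Notch1. It rose 4.25-fold in PC3 (log2 2.09, adjusted p = 2.18e-05) and 4.65-fold in LNCaP (2.22, 7.16e-06), with no overlap in either line. BMP2 rose by 1.03 in PC3 (adjusted p = 0.00702), with values under log2 5 on every array and a call lost without PC3 Notch1 replicate 2 (0.0804), and INHBB, which encodes an activin subunit, by 2.00 in LNCaP (2.05e-06). Among 12 receptors none was called in PC3 (1 higher and 3 lower at an unadjusted p under 0.05), and ACVR2B, an activin receptor, rose by 0.49 in LNCaP (adjusted p = 0.0125), a call lost without LNCaP GFP replicate 1 (0.0596), LNCaP GFP replicate 2 (0.0825) or LNCaP Notch1 replicate 1 (0.0797).

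Of 10 extracellular and membrane regulators, FST, the activin trap follistatin, fell by 1.27 in PC3 (adjusted p = 9.96e-05). BAMBI, a decoy receptor, fell by 1.51 in LNCaP (2.23e-05). LTBP1, which tethers latent TGF-beta, had changes of -0.70 in PC3 and 0.64 in LNCaP (0.0290 and 0.0187). All its LNCaP values lay under log2 5, so its LNCaP change was 0 with the floor. The PC3 call of LTBP1 was lost without PC3 GFP replicate 1 (0.169), PC3 Notch1 replicate 1 (0.218) or PC3 Notch1 replicate 2 (0.0739) and with the floor (0.115), and its LNCaP call without LNCaP GFP replicate 1 (0.0557), LNCaP GFP replicate 2 (0.0808) or LNCaP Notch1 replicate 2 (0.153). Of 27 nuclear partners and regulators, TOB1, ZEB1, STRAP and TGIF1 were called higher in PC3 (0.91, 0.70, 0.67 and 0.61), and none lower (4 at an unadjusted p under 0.05). All 4 calls were lost with the floor, with the PC3 arrays fitted alone (adjusted p = 0.0653 to 0.0809), and without PC3 GFP replicate 1, PC3 Notch1 replicate 1, PC3 Notch1 replicate 2 or either LNCaP Notch1 array (0.0629 to 0.195). With the floor the PC3 changes of TOB1, STRAP and TGIF1 stayed at 0.91, 0.67 and 0.61, and that of ZEB1 was 0.05. In LNCaP the co-repressor TGIF1, the ubiquitin ligase SMURF1 and the receptor-binding FKBP1A were called higher (0.94, 0.62 and 0.53). TOB1, the ubiquitin ligase NEDD4L and TGIF2 were called lower (-1.30, -0.70 and -0.62). SMURF1, FKBP1A, NEDD4L and TGIF2 were not called without LNCaP GFP replicate 1 (0.113, 0.0503, 0.0618 and 0.147). FKBP1A and SMURF1 were not called without LNCaP Notch1 replicate 1 either (0.0538 and 0.0589), nor SMURF1, NEDD4L and TGIF2 without LNCaP Notch1 replicate 2 (0.110, 0.0970 and 0.180). SMURF1 lay under log2 5 on every LNCaP array, and its LNCaP change was 0 with the floor. The LNCaP calls of TOB1 (0.0665), NEDD4L (0.0903) and TGIF2 (0.123) were lost with the floor as well.

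Of 16 target genes, SNAI2, a repressor of E-cadherin, rose by 4.17 in PC3 and 5.92 in LNCaP from GFP values under log2 5, or by 0.91 and 2.13 with the floor. CDKN1A read 6.45 and 6.36 in PC3 GFP, 8.28 and 8.00 in PC3 Notch1, 11.09 and 11.17 in LNCaP GFP and 11.29 and 11.16 in LNCaP Notch1. It rose 3.34-fold in PC3 (log2 1.74, adjusted p = 1.90e-05) and differed by 0.10 in LNCaP (95% interval -0.19 to 0.38, adjusted p = 0.693), where the arrays overlapped. CCN2, a matrix-associated growth factor, rose by 1.03 in PC3 (0.00440), a call lost with the floor (0.0782) and without PC3 Notch1 replicate 2 (0.0627). In LNCaP the matrix protein FN1 rose by 1.85, the BMP target ID1 by 1.44 and the cell-cycle inhibitor CDKN2B by 0.85, and MYC fell by 0.84. No target was called lower in PC3 (2 at an unadjusted p under 0.05).

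**Figure D4:**
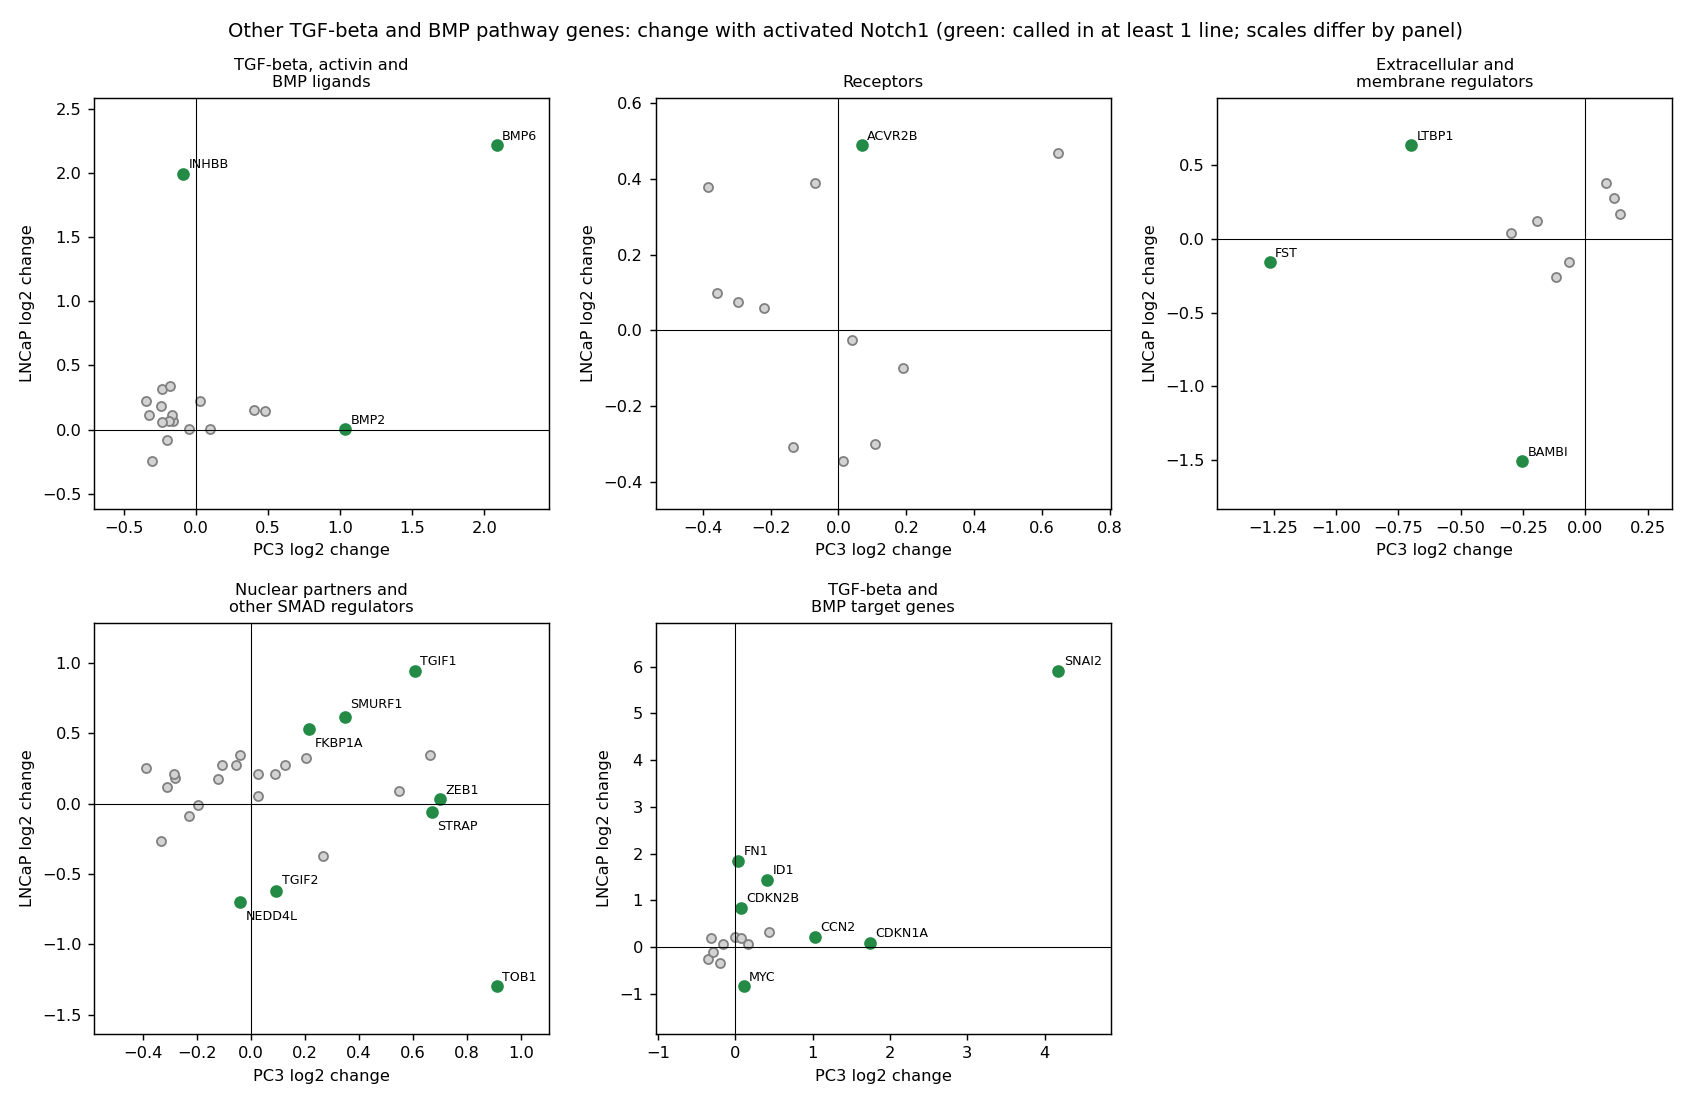
Change with activated Notch1 in PC3 (x axis, log2) and LNCaP (y axis, log2) of the 84 measured genes of the 5 pathway lists, 1 panel per list and 1 point per gene. Green points were called in at least 1 line and are named, and scales differ between panels. BMP6, at 2.09 and 2.22, lies in the upper right, while INHBB and FN1 lie high on the LNCaP axis and CDKN1A far along the PC3 axis.

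The genes whose levels across the 8 arrays ran most like SMAD3 1433_g_at were ranked among 5895 genes with a mean of at least log2 5. EPHB6, an ephrin receptor, and ARHGEF6, a guanine nucleotide exchange factor, both had r = 0.983. TRAF3, an adaptor of TNF-receptor signalling, had 0.973, and the keratin KRT16 and the protease inhibitor SERPINA1 had 0.972. All 5 had their highest mean in PC3 Notch1, with changes of 0.64 to 2.57 in PC3 and 0.22 to 0.87 in LNCaP. They were picked on these same arrays for running like SMAD3. The shared peak and the larger change in PC3 therefore follow from the choice and are no separate result. The arrays fall into 4 groups, so these values describe group levels over 8 arrays that share lines and controls.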

How the data were processed

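Total RNA of the 8 samples was hybridised to Affymetrix Human Genome U95Av2 arrays. Per the methods and the submitters' processing notes, the authors summarised the raw array files with RMA and then used limma, in versions not given in the sources used here. RMA corrects background, equalises arrays and combines the probes of a set. The authors deposited 1 log2 value per probe set and array, which was analysed as deposited, and no source states whether both lines were normalized together. RMA pulls low signals together, so changes under log2 5 can be understated.

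Of 12625 probe sets, 67 control probe sets were left out and 12558 tested. The platform annotation gave 1 symbol to 10943, several to 545 and none to 1070, and Entrez identifiers of 10934 were found in the RefSeq gene table (GRCh38.p14). NOTCH1, HEY1 and some markers of LNCaP were not analysed here. One limma 3.58.1 model (R 4.3.3) with a mean for each of 4 groups was fitted to all 8 arrays (4 residual and 6.37 prior degrees of freedom). Tests were two-sided. The script was tested on simulated data. Named genes were all SMAD probe sets, the called members of each list (at most the 4 largest changes per direction and line), HES1, CDKN1A and the 5 genes most correlated with SMAD3. The members, lists and rules were chosen with earlier results of these data known.

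Replicate numbers occur in all groups in the labels. Same-numbered arrays deviated together from their group means (r = 0.124 to 0.545 over the 6 pairs of groups). The labels do not tell what the number stands for, the model without it was kept and blocked values that changed a call are given in the report or with the alternatives. Alternatives were median centring, quantile normalization, a floor at log2 5, leaving out the lowest 25% of probe sets by mean, fitting each line alone, an intensity trend, the replicate block, leaving out each array and, for the lists, averaging all probe sets of a gene.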

Additional observations from a re-analysis of the deposited data

Results flagged for a closer look

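For 16 named probe sets the change with activated Notch1 differed between the lines by the test of the difference itself (limma, adjusted p under 0.05, LNCaP change minus PC3 change on the log2 scale). Among the SMAD genes these were SMAD2 1928_s_at at -1.04, SMAD3 1433_g_at at -0.84 and SMAD3 1454_at at -0.68. SMAD3 rose in both lines on these probe sets, and SMAD2 1928_s_at in PC3 alone by the threshold, with an LNCaP value of -0.11.

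Among the other pathway genes 13 were flagged. The list genes were named for being called in a line on the same arrays, which favours a difference between lines. Over all 84 measured list genes, 9 differences were called higher and 6 lower. Of all tested probe sets, 6.49% were called higher and 7.67% lower. The difference was positive for INHBB (2.09, adjusted p = 4.42e-05), FN1 (1.81, 7.81e-05), SNAI2 (1.75, 0.0192), LTBP1 (1.33, 0.00323), FST (1.11, 0.00179), ID1 (1.03, 0.00908) and CDKN2B (0.78, 0.0235). It was negative for TOB1 (-2.21, 0.00120), CDKN1A (-1.64, 0.000278), BAMBI (-1.25, 0.00159), BMP2 (-1.03, 0.0219), MYC (-0.95, 0.00453) and CCN2 (-0.80, 0.0433). Without single arrays the differences of CCN2 (adjusted p = 0.0701 to 0.140), CDKN2B (0.0563 to 0.0847), BMP2 (0.0571 to 0.0861) and SNAI2 (0.0585 to 0.0821) were lost: CCN2 without any array but PC3 GFP replicate 2, CDKN2B likewise, and BMP2 and SNAI2 without any Notch1 array. With values under log2 5 raised to it, the differences of SMAD2 1928_s_at (adjusted p = 0.137), SMAD3 1433_g_at (0.160), SMAD3 1454_at (0.0616), LTBP1 (0.70, 0.132), ID1 (0.0710), TOB1 (0.0512), CDKN2B (0.0830) and CCN2 (0.0923) were lost, and that of BMP2 was 0. TOB1 and LTBP1 were called in opposite directions in the lines, but with the floor these calls were lost in both lines. The changes of TOB1 kept their size with the floor, and the LNCaP change of LTBP1 was 0. With the PC3 arrays fitted alone, the PC3 calls were lost too (limma, adjusted p = 0.0585 for LTBP1 and 0.0809 for TOB1). BMP6 had a difference of 0.13 (adjusted p = 0.707) and HES1 of 0.23 (0.360).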

How the results depend on the processing

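Of 982 values of single SMAD probe sets under an alternative, 891 kept direction and side of the threshold, 52 lost a call, 14 gained one and 25 changed sign, all of them uncalled. With values under log2 5 raised to it, SMAD calls numbered 4 in PC3 (7 before), 0 in LNCaP (3) and 0 for the difference between lines (3), and pathway genes called higher in PC3 numbered 3 (9) and lower in LNCaP 3 (5). SMAD1, SMAD2 and SMAD3 lie above the floor and their values did not move, but the prior degrees of freedom fell to 0.386 from 6.37. With only a line's arrays in the fit, pathway genes in PC3 numbered 5 higher and 1 lower (2). Median centring gave 5 calls for the difference between lines. Leaving out each array gave 4 to 9 SMAD calls in PC3, 0 to 3 in LNCaP, 0 to 3 for the difference between lines and 14 to 16 between control cells, and for pathway genes 3 to 12 higher and 1 to 3 lower in PC3, and 8 to 13 higher and 3 to 5 lower in LNCaP. The cause of these shifts was not tested otherwise.

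The fit with the replicate number as a block gave 6 calls for the difference between lines, and beside those given in the report it changed no other SMAD call. Over all probe sets it gave 1434 lower and 1445 higher for that difference. Among pathway genes it added the line differences of STRAP (adjusted p = 0.00998), TGIF2 (0.0133), ZEB1 (0.0361) and NEDD4L (0.0427), 1 receptor higher and 1 nuclear partner lower in PC3, and 2 extracellular regulators in all higher, 1 receptor lower and 2 targets in all lower in LNCaP. Counts over all probe sets moved more than 1.5 times: in PC3 higher from 526 to 187 (without PC3 Notch1 replicate 2) and 1003 (without PC3 GFP replicate 2), lower from 253 to 64 and 691 under the same losses, in LNCaP higher from 1006 to 539 and lower from 1170 to 638 without LNCaP Notch1 replicates 1 and 2, the difference between lines from 815 to 400 and 1445 higher and from 963 to 550 lower, and between control cells from 5067 to 3054 higher with the floor and from 2319 to 3852 lower with median centring, which also gave 3323 higher.

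Signs changed for uncalled values. Median centring gave -0.030 for SMAD1 1325_at (difference between lines) and -0.015 for SMAD4 510_g_at (LNCaP), quantile normalization -0.0056 for the latter. The floor gave differences between lines of 0.016 for SMAD4 509_at, 0.094 for SMAD5 1013_at, 0.29 for SMAD5 39926_at and -0.20 for SMURF1. Leaving out each array gave differences between lines of -0.060 to 0.20 (SMAD1 1325_at), -0.68 to 0.19 (SMAD4 509_at), -0.31 to 0.20 (SMAD5 39926_at), -0.082 to 0.52 (SMAD6 40231_at), -0.034 to 0.61 (SMAD7) and -0.052 to 0.31 (BMP6). It gave LNCaP changes of -0.30 to 0.080 (SMAD2 1928_s_at), -0.13 to 0.082, -0.25 to 0.63 and -0.23 to 0.32 (SMAD4 36953_at, 509_at and 510_g_at), -0.081 to 0.072 (SMAD5 1952_s_at), -0.027 to 0.23 and -0.065 to 0.033 (SMAD6 1955_s_at and 40231_at), and PC3 changes of -0.54 to 0.066 (SMAD6 40231_at) and -0.51 to 0.14 (SMAD7). Signal near background limits SMAD6, SMAD7 and part of SMAD4 and SMAD5 in PC3.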
